A study of Arabidopsis thaliana with 8 samples.

Results

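The small proteins encoded in the nuclear genome of Arabidopsis thaliana whose translation could be measured form a set of 91 loci, out of 27416 loci with a length in the deposited tables. A locus entered the set if it was nuclear, if its longest model had a value of at most 70 in the length column, and if its footprint counts over the 4 footprint libraries summed to at least 300. The summed footprint count chose the members and is given here as a description. Of 1447 nuclear loci within the length limit, 490 had any footprint count and 91 reached the count limit, while 7159 longer nuclear loci reached it.

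Plants under a blue light condition were compared with plants under a dark condition, with 2 ribosome footprint libraries and 2 mRNA libraries for each. Ribosome profiling sequences the pieces of mRNA that ribosomes shield from RNase I, so a footprint count follows the number of ribosomes on a coding sequence. The labels name no genotype, strain, tissue, plant age, light intensity or exposure time, and they do not say whether replicates were grown separately, so a p-value here stands for the spread among these libraries, which may be technical. The title of the series asks how transcripts with downstream start sites escape upstream open reading frames in blue light, and a count per gene model does not show start sites.

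Very small proteins of plants do several kinds of work. Metallothioneins bind metal ions through clustered cysteines, arabinogalactan peptides are heavily glycosylated molecules of the cell surface, and defensins are cysteine-rich secreted peptides of defence. Peptide hormones such as PSY1 and phytosulfokine are cut from short precursors, and further small proteins serve as subunits of ribosomes, of respiratory complexes and of the machinery that imports proteins into mitochondria.

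The length column ran from 16 to 70 among the members, with a median of 59. Among 9600 nuclear genes whose annotated span divides into whole codons, 984 had a span without the stop codon that was exactly 9 codons above this column, against 0, 1, 4 and 2 genes at 7, 8, 10 and 11 codons. The column was therefore read as the coding length less 9 codons, which puts the members at 25 to 79 residues. A symbol was available for 25 members, 62 were in the reference table without a symbol, and 4 were not in it. No function is given here for those 66. The members lay on chromosomes 1 to 5 in numbers of 14, 18, 22, 12 and 25.

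At the count limit, AT5G41685, AT5G01350 and PSK4 entered with 310, 303 and 301 footprint counts, and AT2G37120, AT3G01130 and AT3G19030 fell outside with 292, 290 and 286. PDX1L4, PSK4 and AT4G33666 had the highest admitted length of 70, and AT3G59930, ATOZI1, AT4G28290 and AT5G33355 fell outside at 71. The members' summed footprint counts had a median of 698 and reached 9987 in MT2B. In the dark libraries alone 82 members summed to at least 150 counts, in the blue libraries alone 88 did, and 79 did in both, so some members entered through 1 condition.

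The footprint libraries held 4919808 and 3744422 counts in blue light and 2888624 and 3157879 in the dark, and the mRNA libraries held 688630 to 847469. As a check of the labels, 4 of 4 genes known to be high in light (ELIP1, ELIP2, HY5 and TT4) were higher in blue-light footprints and 2 of 2 known to be high in the dark (DIN10 and PIL1) were lower. Of 7 root genes 1 was called higher and 3 lower, with summed levels of 149 and 161 counts scaled to library size (CPM) in blue light and 189 and 208 CPM in the dark. Of 5 tested seed genes 1 was lower, and the summed level of the 6 listed was 55.7 and 252 CPM in blue light and 286 and 179 CPM in the dark. SESA1 was listed at 2 and 4 footprint counts in the blue-light libraries and 6 and 5 in the dark libraries, and no root or seed gene of the lists was at 0 in every footprint library. The part of root or seed tissue in the results below was not tested, and in such bulk libraries fewer cells of a type and less RNA per cell cannot be told apart.

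The first comparison asked how footprints on the 91 members differed between blue light and the dark. A few members rose strongly in blue light, led by PDX1L4, KIN2 and KIN1, and AT5G57760 fell to near absence. A larger number fell slightly, among them all 5 metallothioneins, whose falls are set beside those of other short loci below. In all, 11 members were called higher (12.1%) and 28 lower (30.8%), and 52 were not called (quasi-likelihood F-test of edgeR, p adjusted by Benjamini-Hochberg over all 15788 tested loci, called under 0.05). Over all tested loci, 20.9% were called higher and 16.9% lower. Over the 7159 longer nuclear loci with at least 300 footprint counts, 30.4% were called higher and 22.3% lower. Changes of at least 2-fold were seen in 7 of the members called higher and 4 of those called lower, against 9.1% and 4.28% of all tested loci, so 24 of the 28 falls were smaller than 2-fold.

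The DESeq2 Wald test called 10 of the 11 higher members and 13 of the 28 lower ones. With blue footprint replicate 1 left out 16 members were lower, and with dark footprint replicate 2 left out 17 were. Of the 11 members called higher, 7 had fewer than 150 counts in the dark libraries together, so they entered the set through their blue-light counts. These were PDX1L4, KIN2, KIN1, AT5G15948, TOM5, AT4G33666 and PSY1, which are all the members that rose at least 2-fold. The number of strong rises therefore depends on the count rule and is not a result about small proteins. Of the 28 called lower, AT5G57760 and AT2G15960 had fewer than 150 counts in the blue-light libraries together, 17 and 143, and entered through their dark counts.

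**Figure D1:**
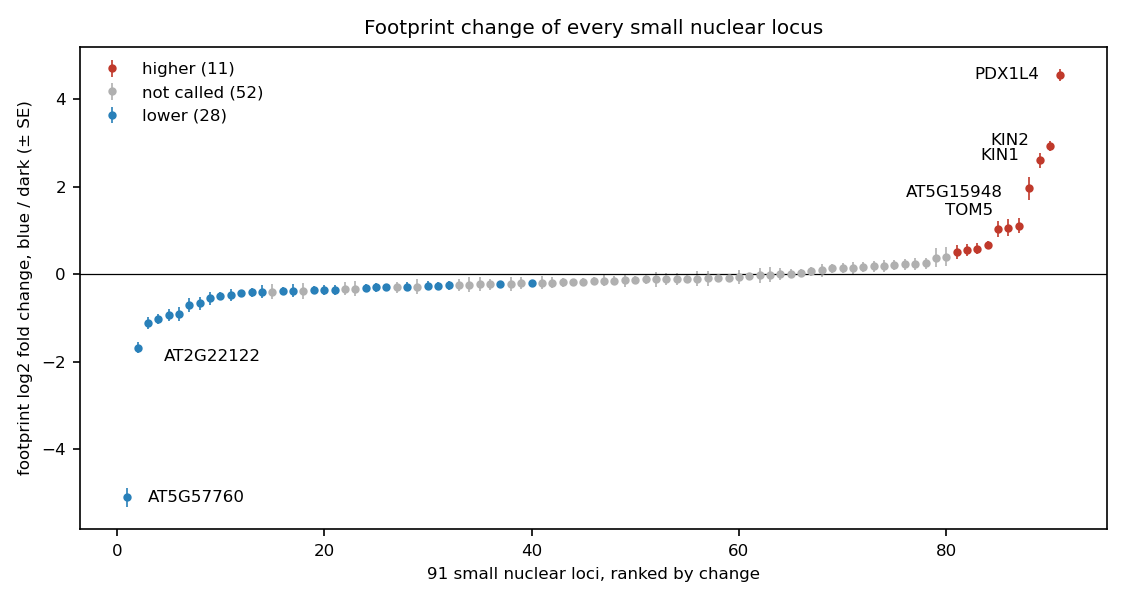
Footprint log2 fold change, blue light over dark, of the 91 small nuclear loci in rank order, with the standard error as a bar and the call in colour. The changes ran from -5.11 at AT5G57760 to 4.56 at PDX1L4, 63 of them were negative and 28 positive, and most of the 28 falls lay close to 0.

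The median log2 fold change of the members was -0.15 in footprints, against 0.03 for the longer loci and -0.02 for all tested loci. Leaving out single libraries moved the members' median between -0.11, without dark footprint replicate 2, and -0.22, without blue footprint replicate 2. The next length class, 125 loci with 71 to 100 in the length column, had 17.6% of its loci higher and 39.2% lower, with a median of -0.18. In loci above 1000 these shares were 37% and 7.36%, with a median of 0.17. The slight shift downward was thus also present in the loci just above the length limit. Whether coding length itself bears on the counts was not tested. The members took 0.675% and 0.706% of the nuclear footprint counts in the blue-light libraries. In the dark libraries they took 0.837% and 0.897%, and the groups did not overlap. Among counts of nuclear loci with at least 300 footprint counts, the class of 71 to 100 took 1.11% and 1.14% in blue light. In the dark that class took 1.35% and 1.42%. The class above 150 and up to 200 went the other way, with 9.59% and 9.77% in blue light and 8.70% and 8.81% in the dark. A lower share in blue light was thus not particular to the members.

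**Figure D2:**
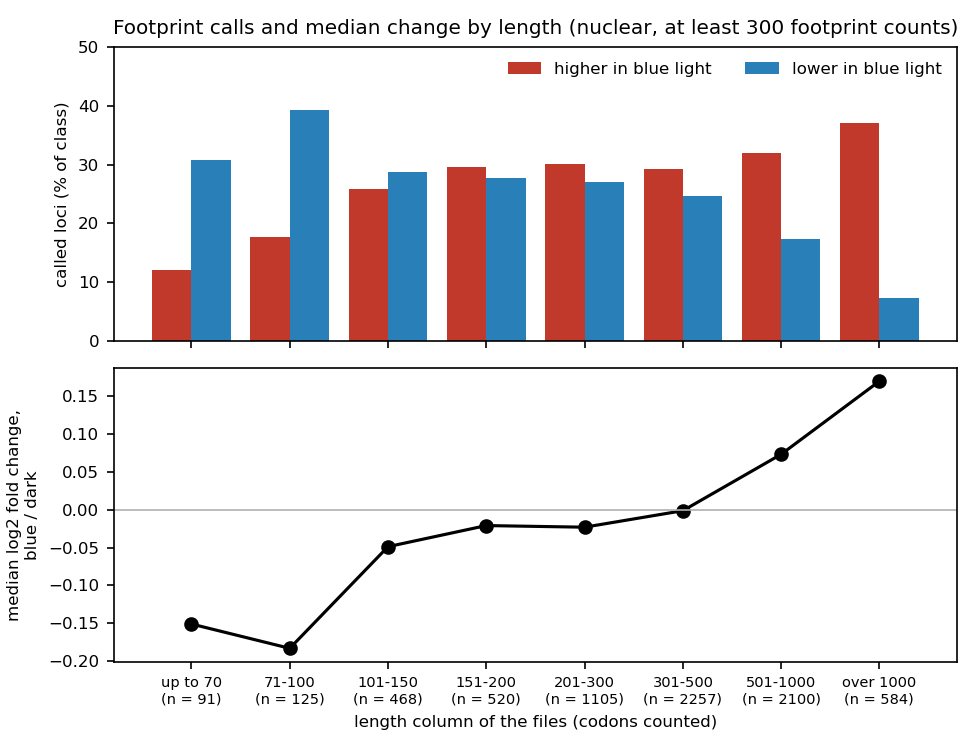
Share of nuclear loci called higher or lower in blue-light footprints (upper panel, percent of the class) and the median log2 fold change (lower panel) in 8 classes of the length column, with the number of loci under each class. The small loci and the class of 71 to 100 were the 2 classes with the lowest medians, -0.15 and -0.18, and the share called lower was smallest, 7.36%, in loci above 1000.

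PDX1L4 (AT2G38210), named for its likeness to PDX1, the synthase of vitamin B6, showed the steepest rise. Its footprints were at 202 and 205 CPM in the blue-light libraries and at 10.02 and 7.33 CPM in the dark libraries. The groups lay far apart, at a fitted log2 difference of 4.56 with an SE of 0.14 (adjusted p = 3.43e-21, edgeR's quasi-likelihood test). The dark libraries held only 31 and 25 counts, where this SE can lie below counting error. With the DESeq2 Wald test PDX1L4 stood at 4.56 ± 0.23. Its mRNA was counted 5 and 7 times in blue light and 2 and 0 times in the dark, too few to test.

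KIN1 (AT5G15960) and KIN2 (AT5G15970) encode small hydrophilic proteins that cold and abscisic acid are known to induce. KIN2 had 145 and 143 CPM in blue-light footprints and 16.5 and 21.1 CPM in dark footprints, or 2.93 ± 0.12 on the log2 scale (adjusted p = 1.10e-17). KIN1 had 55.3 and 63.5 CPM in blue light and 8.08 and 11.1 CPM in the dark, a change of 2.60 ± 0.17 (adjusted p = 3.76e-13). Both genes were several-fold higher in each blue-light library than in either dark library. The dark libraries held 51 and 72 counts of KIN2 and 25 and 38 of KIN1, where these SEs can lie below counting error. With the DESeq2 Wald test KIN2 stood at 2.94 ± 0.19 and KIN1 at 2.62 ± 0.28. The pair are close copies with the same length value of 57, and how reads were shared between them is not given in the sources used here, so their single values are uncertain.

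TOM5 (AT5G08040), a small subunit of the complex that takes proteins through the outer membrane of mitochondria, was higher in blue light as well. Its footprints stood at 28.0 and 32.9 CPM in blue light and 13.6 and 14.4 CPM in the dark (1.11 ± 0.18, adjusted p = 8.11e-06). The other member of the mitochondrial group, SDH8 (AT2G46390), a subunit of respiratory complex II, had 26.4 and 23.3 CPM in blue light and 28.1 and 27.3 CPM in the dark and was not called (-0.14 ± 0.15, adjusted p = 0.501).

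PSY1 (AT5G58650) encodes the precursor of a secreted, tyrosine-sulfated peptide that promotes cell expansion. It had 29.7 and 26.8 CPM in blue-light footprints and 16.2 and 11.7 CPM in dark footprints, without overlap (1.04 ± 0.18, adjusted p = 3.75e-05). The other peptide hormone precursor, PSK4 (AT3G49780), one of the phytosulfokine precursors, had 18.5 and 17.8 CPM in blue light and 23.9 and 24.0 CPM in the dark. It was not called (-0.40 ± 0.17, adjusted p = 0.0637), and was called lower under a filter of at least 10 CPM in 2 libraries (-0.41, adjusted p = 0.0473).

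Among higher members without a symbol, AT4G33666 had 31.7 and 29.1 CPM in blue light and 10.99 and 17.9 CPM in the dark (1.07 ± 0.19, adjusted p = 3.33e-05). AT5G24570 had 54.6 and 67.6 CPM in blue light and 37.2 and 43.4 CPM in the dark (0.58 ± 0.13, adjusted p = 6.92e-04). The calls of AT5G03120 (0.55 ± 0.14) and AT1G05340 (0.51 ± 0.16) each rested on single libraries. AT5G03120 stood at 0.33 without blue footprint replicate 2 (adjusted p = 0.0926). AT1G05340 stood at 0.31 without blue footprint replicate 1 (adjusted p = 0.249) and 0.41 without dark footprint replicate 1 (adjusted p = 0.105), and DESeq2 did not call it (adjusted p = 0.182). The other 9 higher members kept their call under each of the 10 refitted alternatives.

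**Figure D3:**
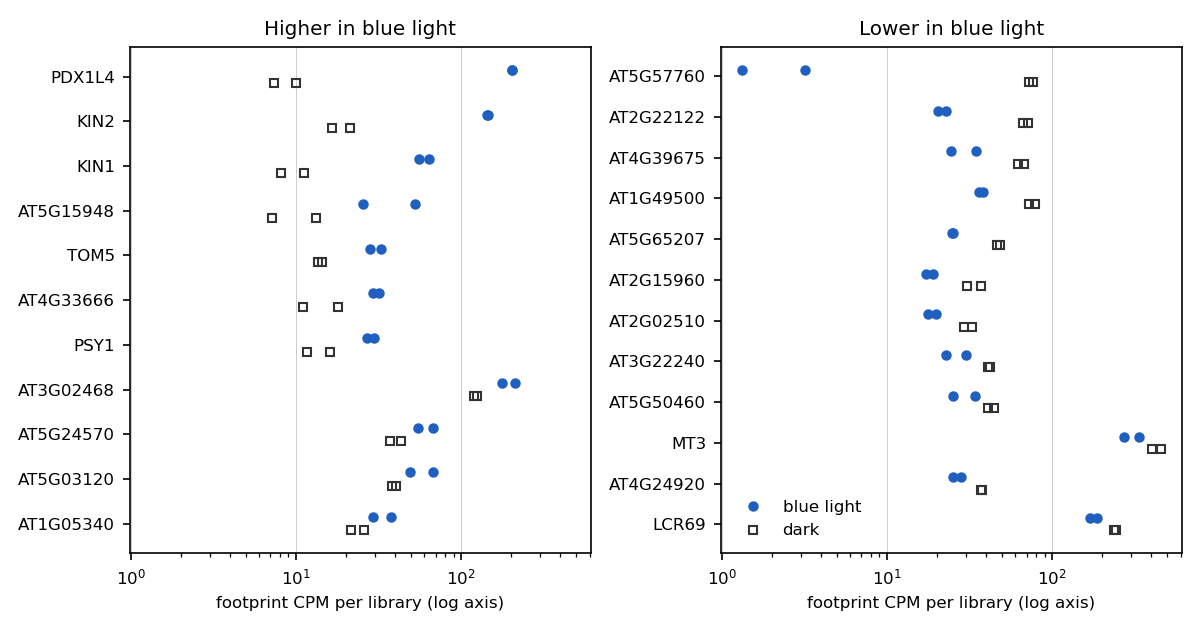
Footprint CPM on a log axis in each of the 2 blue-light libraries (filled circles) and 2 dark libraries (open squares) for the 11 members called higher (left) and the 12 with the largest falls among called members without overlap (right). PDX1L4 stood at 202 and 205 CPM in blue light and 10.02 and 7.33 CPM in the dark, and AT5G57760 at 1.32 and 3.2 CPM in blue light and 72.4 and 77.1 CPM in the dark.

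AT5G57760, which carries no symbol, showed the steepest fall. It was counted 6 and 11 times in the blue-light footprint libraries and 224 and 263 times in the dark libraries, which is 1.32 and 3.2 CPM against 72.4 and 77.1 CPM. The fitted log2 fold change was -5.11 ± 0.22 (edgeR, adjusted p = 1.79e-17). At so few blue-light counts this SE can lie below counting error, and the DESeq2 Wald test put AT5G57760 at -5.12 ± 0.40. It had 0 counts in all 4 mRNA libraries, which allows a share of up to 0.000436% of the counts in the shallowest of them (3 counts, counting error only).

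A further 3 members without a symbol fell by at least 2-fold. AT2G22122 had 20.5 and 22.7 CPM in blue light and 66.3 and 71.5 CPM in the dark (-1.68 ± 0.13, adjusted p = 1.73e-11). AT4G39675 had 34.8 and 24.5 CPM in blue light and 62.4 and 68.0 CPM in the dark (-1.11 ± 0.14, adjusted p = 1.51e-07). AT1G49500 had 38.1 and 36.1 CPM in blue light and 79.2 and 72.4 CPM in the dark (-1.02 ± 0.12, adjusted p = 3.19e-08). In each of these the blue-light libraries lay below both dark libraries.

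Among smaller falls, AT5G65207 at -0.93 ± 0.14, AT2G15960 at -0.92 ± 0.16, AT2G02510 at -0.71 ± 0.16 and AT3G22240 at -0.67 ± 0.15 on the log2 scale kept their call under each of the 10 refitted alternatives. AT5G50460 stood at -0.55 ± 0.15 and lost its call without blue footprint replicate 1 (-0.32, adjusted p = 0.164). AT4G24920 stood at -0.48 ± 0.14 and lost its call without blue footprint replicate 2 or dark footprint replicate 2 (adjusted p = 0.0668 and 0.0578). The DESeq2 Wald test called neither of these (adjusted p = 0.0969 for AT5G50460 and 0.156 for AT4G24920).

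The 5 metallothioneins among the members were all called lower in blue light, with a median log2 fold change of -0.26, and 4 of them lost the call in single-library or DESeq2 refits. Of all members 30.8% were called lower, with a median of -0.15, and of the next length class 39.2%, with a median of -0.18. MT1A, MT2B, MT1B and MT1C lay not far below these medians, between -0.30 and -0.21. Their SEs of 0.07 to 0.10 were below the members' median SE of 0.13, so smaller falls could be called. Whether metallothioneins fell more than other short loci was not tested. MT3 (AT3G15353) had 272 and 337 CPM in blue-light footprints and 402 and 457 CPM in dark footprints, a change of -0.50 ± 0.08 (adjusted p = 1.90e-05) that held under all 10 refitted alternatives. MT1A (AT1G07600) had 447 and 472 CPM in blue light and 496 and 564 CPM in the dark (-0.21 ± 0.07, adjusted p = 0.0240). MT2B (AT5G02380) had 612 and 674 CPM in blue light and 697 and 803 CPM in the dark (-0.22 ± 0.07, adjusted p = 0.0163). For these 3 the groups did not overlap, although the gaps were small in MT1A and MT2B.

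MT1C (AT1G07610) had 106 and 113 CPM in blue light and 119 and 151 CPM in the dark (-0.30 ± 0.10, adjusted p = 0.0158). MT1B (AT5G56795) had 251 and 274 CPM in blue light and 270 and 356 CPM in the dark (-0.26 ± 0.09, adjusted p = 0.0247), and was the 1 called member whose groups overlapped. MT1A and MT1C are close copies with the same length value of 36, so their single values are uncertain. MT1B had 4130 footprint counts and 0 mRNA counts, and MT1C had 1753 and 0. Whether MT1A, MT1B and MT1C share reads was not tested, so their falls may not be separate. Dark footprint replicate 2 was the highest of the 4 libraries for all 5 genes. Without it, MT3 alone was called, and MT1A, MT2B, MT1B and MT1C stood at -0.11, -0.11, -0.04 and -0.12 (adjusted p = 0.421, 0.370, 0.804 and 0.521).

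MT3 was likewise the 1 metallothionein called without blue footprint replicate 1, where MT1A, MT2B, MT1B and MT1C had adjusted p = 0.219, 0.258, 0.291 and 0.181. MT3 and MT2B were the 2 called without blue footprint replicate 2, where MT1A, MT1B and MT1C had adjusted p = 0.0611, 0.0644 and 0.0511. With dark footprint replicate 1 left out the median of the 5 was -0.43, and with dark footprint replicate 2 left out it was -0.11. All 5 fold changes were negative under every refit. MT2A, just beyond the length limit at 72, was not called (0.13).

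MT1A and MT2B also had the highest footprint density of the small proteins in both conditions. Per 100 codons of the length column, footprints on MT1A averaged 1276 CPM in blue light and 1472 CPM in the dark, and footprints on MT2B averaged 946 CPM in blue light and 1103 CPM in the dark. AGP12 was the third in blue light at 637 CPM per 100 codons (618 and 655), next to MT1B at 625 (598 and 652), and these 2 overlapped. MT1B was the third in the dark at 745 CPM per 100 codons (644 and 847), next to MT3 at 715 (669 and 762), and these 2 overlapped as well. The order of this last pair depends on the length used: with the 9 codons added back, an alternative chosen after seeing the data, MT3 had 622 and MT1B 614 CPM per 100 residues in the dark, while the 3 leading loci in blue light were again MT1A, MT2B and AGP12. The 5 metallothioneins took 23.3% and 24.5% of the members' footprint counts in the blue-light libraries and 25.6% and 28.4% in the dark libraries.

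Arabinogalactan peptides numbered 5 among the members, of which AGP16 (AT2G46330) was called lower and the other 4 were not called. AGP16 had 89.0 and 91.8 CPM in blue light and 126 and 110 CPM in the dark (-0.38 ± 0.10, adjusted p = 0.00196), and lost the call without dark footprint replicate 1 (-0.27, adjusted p = 0.0802). AGP21 (AT1G55330) had 266 and 265 CPM in blue light and 310 and 290 CPM in the dark (-0.17 ± 0.07, adjusted p = 0.0613), and was called lower under the filter of at least 10 CPM in 2 libraries (adjusted p = 0.0327). AGP24, AGP12 and AGP15 had log2 fold changes of -0.12, -0.09 and -0.05 (adjusted p = 0.222, 0.375 and 0.674), and AGP15 stood at 0.05 without blue footprint replicate 2. Both blue-light libraries lay below both dark libraries for each of these peptides other than AGP15, by less than 1 CPM in AGP12, where they had 315 and 334 CPM in blue light and 354 and 335 CPM in the dark.

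Beyond the members, 44 loci with arabinogalactan protein symbols, fasciclin-like proteins included, gave 32 that could be tested in footprints, of which 13 were lower and 4 higher. AGP4 at -0.62 ± 0.07 and AGP31 at -0.55 ± 0.07 were lower (adjusted p = 1.15e-08 and 2.23e-07). AGP17 at 2.14 ± 0.16 and FLA15 at 1.04 ± 0.14 were higher (adjusted p = 7.94e-12 and 3.52e-07). Of the tested loci, 4 were peptides within the length limit that missed the count limit. AGP13 was lower at -0.62 ± 0.21 (adjusted p = 0.0191), and AGP20, AGP22 and AGP14 were not called, at -0.08, -0.08 and -0.05 (adjusted p = 0.749, 0.754 and 0.852). Beside the 13 in 32, 16.9% of all tested loci were called lower, and 22.3% of the longer nuclear loci with at least 300 footprint counts. Among the latter the share was 28.8% at length values above 100 and up to 150, and 24.7% above 300 and up to 500. Most proteins of the list are much longer than the members. Whether the list differs from loci of like length and count was not tested, so its share is not read as a result about arabinogalactan proteins.

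The cold- and stress-named members moved in both directions. Against the rises of KIN1 and KIN2 stood RCI2A and RCI2B, small hydrophobic membrane proteins whose genes are known to respond to cold. RCI2B (AT3G05890) had 117 and 122 CPM in blue light and 161 and 148 CPM in the dark (-0.37 ± 0.09, adjusted p = 0.00103), a fall that held under all 10 refitted alternatives. RCI2A (AT3G05880) had 126 and 115 CPM in blue light and 140 and 157 CPM in the dark (-0.30 ± 0.09, adjusted p = 0.00763). It lost its call with DESeq2 (adjusted p = 0.0944), without blue footprint replicate 2 (-0.24, adjusted p = 0.104) and without dark footprint replicate 2 (-0.21, adjusted p = 0.164). RCI2A and RCI2B are close copies, and their single values are uncertain.

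A loose list of 41 further loci with cold-, dehydration- or embryogenesis-type stress symbols gave 35 tested in footprints, of which 14 were higher and 6 lower. The cold- and drought-induced LTI78 was at 2.32 ± 0.10, COR413-PM1, a cold-regulated membrane protein, at 2.17 ± 0.07, LEA4-5 at 1.83 ± 0.17 and the dehydrin LTI30 at 1.08 ± 0.18. The list was drawn by matching symbols and synonyms, so it also held genes of other roles, such as CHLI1, a subunit of magnesium chelatase, at 0.82 ± 0.07. COR413-PM2 at -0.33 ± 0.11, AT1G54410 at -0.22 ± 0.08 and AT2G46140 at -0.58 ± 0.17 were lower. COR47 at 0.19 ± 0.08 and XERO1 at 0.57 ± 0.29 were not called. The largest fall of the list was that of APK2A, at -0.97 ± 0.18. The largest rise of the list was that of ABA1, at 3.46 ± 0.11. Beside the 14 in 35, 20.9% of all tested loci were called higher, and 30.4% of the longer nuclear loci with at least 300 footprint counts. Counts and roles differed within the list, so its share is not read as a result about stress proteins.

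**Figure D4:**
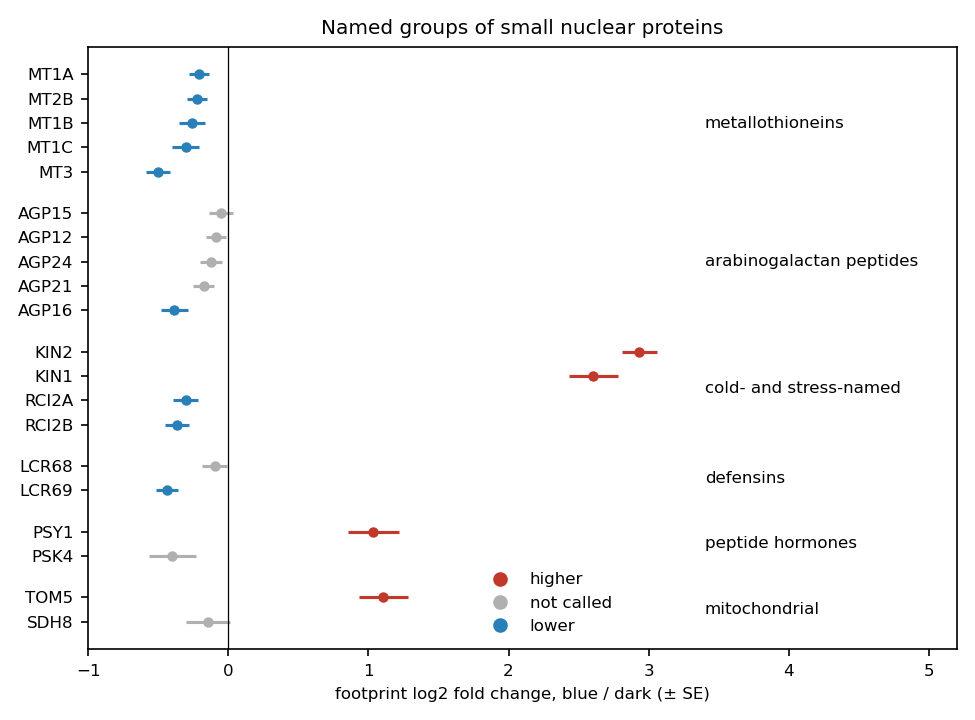
Footprint log2 fold change, blue light over dark, with its standard error for 20 members with a symbol, grouped by function and coloured by call. The 5 metallothioneins lay between -0.50 and -0.21, while KIN2, KIN1, TOM5 and PSY1 lay between 1.04 and 2.93 on the positive side.

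Of the defensins, LCR69 (AT2G02100) had 170 and 187 CPM in blue light and 238 and 244 CPM in the dark (-0.44 ± 0.08, adjusted p = 4.34e-05), a fall that held under all 10 refitted alternatives. LCR68 (AT2G02130) had 145 and 175 CPM in blue light and 178 and 163 CPM in the dark, overlapping (-0.10 ± 0.09, adjusted p = 0.440). UBL5 (AT5G42300), a ubiquitin-like protein whose yeast relative acts in splicing, had 80.6 and 84.2 CPM in blue light and 103 and 102 CPM in the dark (-0.32 ± 0.10, adjusted p = 0.00954). Its call was lost with DESeq2 (adjusted p = 0.134), without blue footprint replicate 1 (-0.28, adjusted p = 0.0936) and without dark footprint replicate 1 (-0.29, adjusted p = 0.0588).

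RPS28 (AT5G64140), of the small subunit of the cytosolic ribosome, was not called (-0.15 ± 0.13, adjusted p = 0.385). Neither were OEP6 (AT3G63160), of the outer envelope of chloroplasts, at -0.03 ± 0.17 (adjusted p = 0.915), and SMAP1 (AT4G13520), a small acidic protein of the response to synthetic auxin, at -0.12 ± 0.14 (adjusted p = 0.568). The sign of RPS28, OEP6, SMAP1 and LCR68 turned in at least 1 refit without a library. By annotation, 5 of the 25 members with a symbol were higher, 10 lower and 10 not called, and of the 62 in the reference table without a symbol 4 were higher, 18 lower and 40 not called. The fold changes of the 52 members not called ran from -0.40 to 0.40. AT3G08520 and AT3G56020, with the same length value of 16, had footprint counts within 1 of each other in each library, so they may hold the same reads.

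The 4 members not in the reference table, AT1G70782, AT3G01472, AT3G02468 and AT5G15948, have locus numbers 2 away from those of AT1G70780, HB-1, SAMDC and AT5G15950, which makes each pair neighbours in the naming order. The relation of each pair on the transcript is not annotated in the sources used here. AT3G02468, next to SAMDC, an S-adenosylmethionine decarboxylase of polyamine synthesis, had 211 and 177 CPM in blue-light footprints and 120 and 125 CPM in dark footprints (0.67 ± 0.09, adjusted p = 6.49e-07). SAMDC itself had 178 and 175 CPM in blue light and 163 and 160 CPM in the dark and was not called (0.13 ± 0.08, adjusted p = 0.217). The count of AT3G02468 divided by that of SAMDC was 1.19 and 1.01 in the blue-light libraries and 0.738 and 0.781 in the dark libraries, without overlap.

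AT5G15948 had 52.4 and 25.3 CPM in blue light and 7.11 and 13.2 CPM in the dark (1.96 ± 0.27, adjusted p = 6.74e-07). The libraries of each condition lay well apart, and the DESeq2 Wald test put AT5G15948 at 1.94 ± 0.67 (adjusted p = 0.0201). Its change was 1.30 without blue footprint replicate 1. Its neighbour AT5G15950 had 48.2 and 49.8 CPM in blue light and 10.99 and 11.7 CPM in the dark (2.102 ± 0.164, adjusted p = 1.18e-11). The ratio of their counts was 1.09 and 0.509 in the blue-light libraries and 0.647 and 1.13 in the dark libraries, which overlapped. AT1G70782 had 44.5 and 40.5 CPM in blue light and 35.6 and 41.9 CPM in the dark and was not called (0.14 ± 0.13, adjusted p = 0.462), while AT1G70780 was higher (0.76 ± 0.16, adjusted p = 4.33e-04). Their ratio was 1.41 and 1.31 in blue light and 2.16 and 2.07 in the dark. AT3G01472 (-0.25 ± 0.14, adjusted p = 0.149) and HB-1 (-0.24 ± 0.10, adjusted p = 0.0589) were not called. These ratios were not tested.

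The second comparison asked how the members' mRNA differed, and the mRNA libraries reached few of them. Per library, 39 and 47 members had 0 mRNA counts in blue light and 45 and 38 in the dark, 22 had 0 in all 4 libraries, and 62 had under 10 in all. For the members there were 1.26 mRNA counts for every 100 footprint counts, against 2.30 in the class of 71 to 100 and 7.06 above 1000. The share of loci without any mRNA count was 24.2% among the members, 13.6% in the class of 71 to 100 and 0% above 500. The footprint and mRNA libraries were made by different protocols. What part the mRNA protocol has in these low counts, or the count limit in the low ratio, was not tested.

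**Figure D5:**
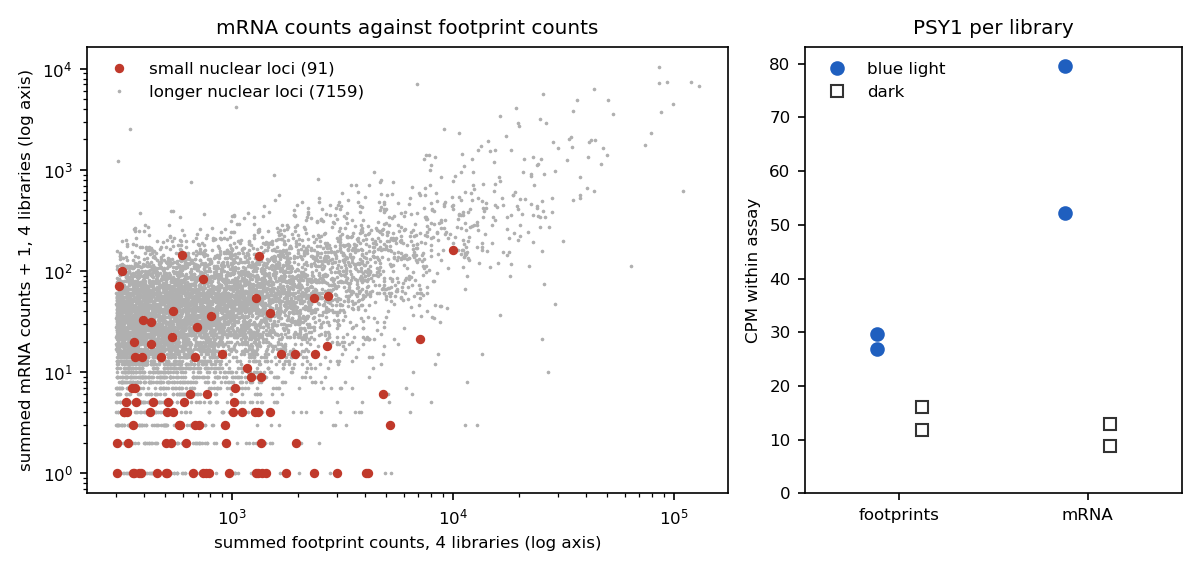
Left: summed mRNA counts plus 1 against summed footprint counts over the 4 libraries of each assay, both on log axes, for the 91 small loci and 7159 longer nuclear loci. Right: CPM of PSY1 in blue light (filled circles) and the dark (open squares) within each assay. The 22 small loci with no mRNA count lie on the bottom edge, and the blue-light values of PSY1 lie above its dark values in both assays.

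Of 12 members with enough mRNA counts to test, 1 was called higher and 0 lower, with 2.85% of the 7822 tested loci higher and 1.05% lower (edgeR quasi-likelihood F-test). At an unadjusted p under 0.05 there were 3 members, 1 of them lower, and DESeq2 also called 0 lower. The member called higher was PSY1. It was counted 36 and 46 times in blue-light mRNA and 7 and 11 times in dark mRNA, or 2.56 ± 0.44 on the log2 scale (edgeR, adjusted p = 2.63e-04), a rise that was called under each of the 10 refitted alternatives. The groups did not overlap.

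The other 11 tested members did not pass, with mRNA changes between -0.80 and 1.32 on the log2 scale. AT5G03850 had 10 and 13 mRNA counts in blue light and 3 and 9 in the dark (1.32 ± 0.76, adjusted p = 0.495). AT5G24570, higher in footprints, had 30 and 22 mRNA counts in blue light and 13 and 17 in the dark (1.16 ± 0.43, adjusted p = 0.180). MT2B, lower in footprints, had 33 and 16 mRNA counts in blue light and 43 and 67 in the dark (-0.80 ± 0.37, adjusted p = 0.330). AT3G02468 had 8 and 10 mRNA counts in blue light and 15 and 20 in the dark (-0.57 ± 0.53, adjusted p = 0.775), beside a called fall of SAMDC mRNA (-1.42 ± 0.27, adjusted p = 7.80e-04). The median standard error over the tested members was 0.49 in mRNA, against 0.13 in footprints, so differences of the size seen for most members in footprints were not detectable with these mRNA counts.

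The third comparison asked whether footprints changed relative to mRNA, through an interaction term between assay and condition in a fit to the 8 libraries. This fit shared 1 estimate of replicate spread (dispersion) between the assays, at a common value of 0.0044, against 0.052 in the mRNA fit. Its SEs and calls may therefore understate the spread of the mRNA libraries. Of the 12 tested members 0 were called higher and 1 lower, with 5.2% of the 6169 tested loci higher and 4.93% lower. At an unadjusted p under 0.05 there were 4 members, 1 of them higher, and DESeq2 called 0 higher. The member called lower was PSY1 (-1.66 ± 0.47, adjusted p = 0.0222), whose mRNA rose more than its footprints. That call was lost without blue footprint replicate 1 (-1.75, adjusted p = 0.0515), blue footprint replicate 2 (-1.59, adjusted p = 0.0727) or dark footprint replicate 1 (-1.41, adjusted p = 0.145). It was also lost without blue mRNA replicate 2 (-1.30, adjusted p = 0.121) or dark mRNA replicate 1 (-1.39, adjusted p = 0.115).

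AT3G02468 had the highest efficiency change of the tested members, at 1.11 ± 0.48, and did not pass (adjusted p = 0.147), while SAMDC was called higher at 1.40 ± 0.22 (adjusted p = 1.07e-04). Both SEs lie below those of the mRNA change alone, 0.53 for AT3G02468 and 0.27 for SAMDC, so the call of SAMDC is less certain than its p-value. MT2B and AGP15 stood at 0.44 ± 0.34 and 0.52 ± 0.47 in efficiency (adjusted p = 0.467 and 0.540). AT5G57760, PDX1L4, KIN2 and KIN1, the 4 members with the largest footprint changes, had too few mRNA counts for a test of mRNA or efficiency, so whether their footprints followed their mRNA was not tested.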

How the data were processed

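Ribosome footprints and mRNA were counted in 8 libraries, 2 per assay and condition. The authors deposited 1 file per library with whole-number read counts per transcript model and no normalization. Per the submitters' processing notes, CASAVA 1.8, Bowtie2 2.1.0, TopHat2 2.0.9 and build TAIR10 were used, without the role of each, and the counting tool is not given in the sources used here. Per the labels' protocols, footprints came from RNase I digestion and ribosome pelleting, and mRNA libraries from a TruSeq kit. Whether counting used strand, and how reads matching several places were counted, is not given in the sources used here, so overlapping genes and close copies can share reads.

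For each of 27416 loci the model with the largest length value was kept. Symbols were looked up by locus tag in a RefSeq table of the TAIR10.1 assembly, and no sequence was printed because none was among the files used here. Blue light was compared with the dark in R 4.3.3 with edgeR 4.0.16: TMM scaling, filterByExpr with a minimum count of 10, and the two-sided quasi-likelihood F-test, with Benjamini-Hochberg adjustment over all tested loci and calls at adjusted p under 0.05. Efficiency was the interaction of assay and condition over all 8 libraries, among loci that passed the filter in both assays. CPM are scaled by TMM library size, within each assay. A fold change is a fitted log2 value of blue light over dark, and its SE is the fold change divided by the square root of F, which can lie below counting error at few counts. The fits were tested on simulated counts. Limits from 3 counts cover counting error only.

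The members and lists were chosen with earlier results of these data known. The rule for named members took the 12 largest rises and falls among called members without overlap, up to 3 per functional group of at least 3 members, the 3 highest levels per codon in each condition, the members and loci nearest the limits and all members called in mRNA or efficiency. Its part on loci of conserved upstream peptides could not be applied, since the table has no descriptions. The 4 members not in that table with their number neighbours, RCI2A, UBL5, MT2A, the remaining members with a symbol and the longer relatives were named after their values were seen. Functional groups came from keywords on symbols and synonyms, with PSY1 and SDH8 placed by hand after their values were seen. The alternatives were DESeq2 1.42.0 size factors and its Wald test, no low-count filter, a filter of at least 10 CPM in 2 libraries, nuclear loci only, the replicate number as a block, each library left out, and subsets of members. Same-numbered libraries deviated from their group means with correlations of 0.012 in footprints and 0.025 in mRNA, so the numbers were not taken to pair them.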

Additional observations from a re-analysis of the deposited data

Results flagged for a closer look

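PSY1 is listed because its change in blue light differed between the assays, by a test of the difference itself: its log2 fold change was 1.04 in footprints and 2.56 in mRNA, and the interaction of assay and light was -1.66 ± 0.47 (SE, edgeR adjusted p = 0.0222). Its adjusted p was between 0.0515 and 0.145 in the 5 of 8 refits without 1 library that lost the call, and the mRNA value rests on 36 and 46 counts in blue light and 7 and 11 counts in the dark.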

How the results depend on the processing

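Of the 11 members higher in footprints, 9 kept their call under every refitted alternative, and of the 28 lower ones 11 did. The count of higher members was 10 to 14 over the libraries left out, and 4 among members with at least 150 dark footprint counts, a subset that leaves out 7 of them by its construction. The count of lower members was 13 under the DESeq2 Wald test and 16 to 22 over the libraries left out, and the cause was not tested. That Wald test called 2078 loci higher and 1186 lower over all tested loci, against 3304 and 2671 in edgeR. In mRNA the count stayed at 1 higher and 0 lower under every alternative. The count of members lower in efficiency was 0 to 1 over the libraries left out, and it was 0 without blue footprint replicate 1 or 2, dark footprint replicate 1, blue mRNA replicate 2 or dark mRNA replicate 1. No called member changed sign under any refit, while 21 members not called in footprints, 2 in mRNA and 4 in efficiency did under at least 1. Of those named by rule, OEP6, at -0.03, stood at 2.53e-04 under the DESeq2 Wald test and between -0.38 and 0.32 over the footprint libraries left out. SMAP1, at -0.12, stood between -0.24 and 0.035 over the libraries left out. Both turned positive without blue footprint replicate 1, and OEP6 also turned positive (0.077) when dark footprint replicate 2 was left out. For the members named by rule, 359 footprint values kept their direction and their side of the threshold, 25 fell short of it and 2 passed it. With the replicate number as a block, 13 members were higher and 29 lower in footprints, 1 higher and 0 lower in mRNA, and 0 higher and 1 lower in efficiency. The numbers were not shown to pair the libraries, with correlations of 0.012 and 0.025 between same-numbered libraries. Few mRNA counts limited the mRNA results: 22 of 91 members had no mRNA count and 12 could be tested. What part sequencing depth or the mRNA protocol has in this was not tested.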
